A study of Homo sapiens with 4 samples.

Results

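The let-7 family of microRNAs (miRNAs) was examined in the extracellular vesicles (EVs) of PC3 cells, a prostate cancer (PCa) line derived from a bone metastasis. The members are the 5p arms of let-7a, let-7b, let-7c, let-7d, let-7e, let-7f, let-7g, let-7i and miR-98, 9 of the 2588 mature miRNA names in the small RNA table. They were chosen by name and not by a rule on their counts, although earlier results of these data were known. The cells were untreated and grown in DMEM with fetal bovine serum. Their EVs were isolated with the exoEasy Maxi kit and by gravity flow chromatography on qEV columns. The EV RNA gave 2 small RNA libraries and 2 libraries of total RNA made with a stranded kit. Each pair is given by the study's methods as biological replicates of a single condition. No comparison between conditions was therefore possible, and the differences given below are between members or between libraries. Both columns of small RNA counts have 1 shared header, and they are named the first and second library by their place in the table, with no replicate number. The titles of both total RNA libraries carry the same preparation code, EX1, while their count tables carry EX1 and EX2, so the labels do not settle whether they come from separate vesicle preparations.

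let-7 miRNAs are cut from hairpins in longer primary transcripts by Drosha and Dicer, loaded into Argonaute proteins, and guided to messenger RNAs by their seed, bases 2 to 8 counted from the 5′ end. They are best known as inhibitors of growth and of the embryonic programme, acting on genes such as HMGA2 and MYC, and they are abundant in most differentiated cells. Their maturation is blocked by the RNA-binding proteins LIN28A and LIN28B, and mature let-7 rises as embryonic tissue differentiates.

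The mature sequences are shown because the members differ at few bases, and the counts rest on telling them apart. They are named with the human prefix hsa of the table, which is left out elsewhere, and listed from the most to the least abundant in PC3-EVs, 5′ to 3′, with the seed in capitals, as given by RefSeq for GRCh38, where all 9 names were matched.
hsa-let-7a-5p: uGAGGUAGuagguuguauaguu
hsa-let-7f-5p: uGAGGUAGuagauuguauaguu
hsa-let-7b-5p: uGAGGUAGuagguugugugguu
hsa-let-7i-5p: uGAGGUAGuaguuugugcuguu
hsa-let-7g-5p: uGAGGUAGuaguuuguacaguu
hsa-let-7d-5p: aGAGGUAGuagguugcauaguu
hsa-let-7e-5p: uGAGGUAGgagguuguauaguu
hsa-let-7c-5p: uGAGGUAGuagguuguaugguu
hsa-miR-98-5p: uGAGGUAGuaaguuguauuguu

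All 9 members have 22 bases and the same seed, and 14 of the 22 positions hold the same base in every member. Counted from 1 at the 5′ end and written with the base of let-7a-5p first, let-7f-5p differs from let-7a-5p by G12A, let-7e-5p by U9G and let-7c-5p by A19G. let-7d-5p differs by U1A and U16C, and it is the only member that does not begin with U. let-7b-5p differs by A17G and A19G, let-7g-5p by G12U and U18C, and miR-98-5p by G11A and A19U. let-7i-5p is the member farthest from let-7a-5p, with G12U, A17G, U18C and A19U.

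To determine how much of the vesicle miRNA cargo carries the let-7 seed, reads were summed over the members. The small RNA libraries held 154185 and 113185 reads on miRNAs, and 12580 and 9027 of these were on the family. This was 8.16% (95% Wilson interval 8.02 to 8.30%) of the miRNA reads in the first and 7.98% (7.82 to 8.13%) in the second library, a mean of 8.07% ± 0.130 (SD, n = 2). The intervals of the libraries overlapped, and they cover counting error only, since amplified reads are not independent molecules. More vesicles with a miRNA and more copies in each vesicle cannot be told apart in such bulk counts. miR-21-5p, the miRNA whose transfer to osteoblasts the study followed, had 5831 and 3031 reads. The 9 members summed held 2.16 times as many reads as this single name in the first library and 2.98 times as many in the second. let-7a-5p alone, with 4661 and 3652 reads, was below miR-21-5p in the first and above it in the second library. Every member had at least 10 reads in both libraries, against 5.56% of all miRNA names, and at least 1 read in both, against 14.9% of all names.

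The share depends on what else was counted in the library. The names miR-4448 and miR-3182, the most abundant of the table, with miR-1246, miR-3135b and miR-7641, took 62.9% of the reads in the first and 69.1% in the second library. They are not the 5 most abundant names, since miR-100-5p was more abundant than miR-1246, miR-3135b and miR-7641 and was kept. No rule for choosing these 5 names is given here, and the share without them depends on that choice. Without the 5 left-out names the family held 22.0% of the remaining reads in the first and 25.8% in the second library, a mean of 23.9% ± 2.72 (SD, n = 2). When the 10 most abundant names outside the family were left out instead, it held 34.9% and 40.2%. Thus the share of the family was lower in the second library by less than counting error over all names, and higher in the second library over the remaining names.

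Names of the table that share bases 2 to 8 were then added up, so that the let-7 seed could be set beside the other seeds. Of the 2588 names, 2281 had a sequence, and the 307 without one, holding 9.84% and 8.82% of the reads, are in no seed group. Abundant names such as miR-7641, miR-30d-5p and miR-151a-3p are among those without a sequence, so the seed ranks hold only for the names with one. GAGGUAG, the let-7 seed, ranked 3 of the 1854 seeds in each library, behind the seeds of miR-3182 and miR-4448, which were each carried by a single name. It ranked 1 of the 53 seeds that had reads on more than 1 name. The next was ACCCGUA, the seed of miR-100-5p, miR-99a-5p and miR-99b-5p, with 5.96% ± 1.22 (SD, n = 2) of the reads, of which miR-100-5p made up 93.9%. By contrast, let-7a-5p made up 38.7% of the let-7 seed, so its reads were spread over more names. The table lists 11 names with the let-7 seed, and the pair that are not members, miR-4458 and miR-4500, had 0 reads in both libraries, which allows up to 19.5 and 26.5 CPM in the first and second library. CPM is the read count of a name when the reads of its library are scaled to 1000000. miR-202-3p, which shares bases 2 to 7 with the family, had 1 read in the first and 0 in the second library.

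**Figure D1:**
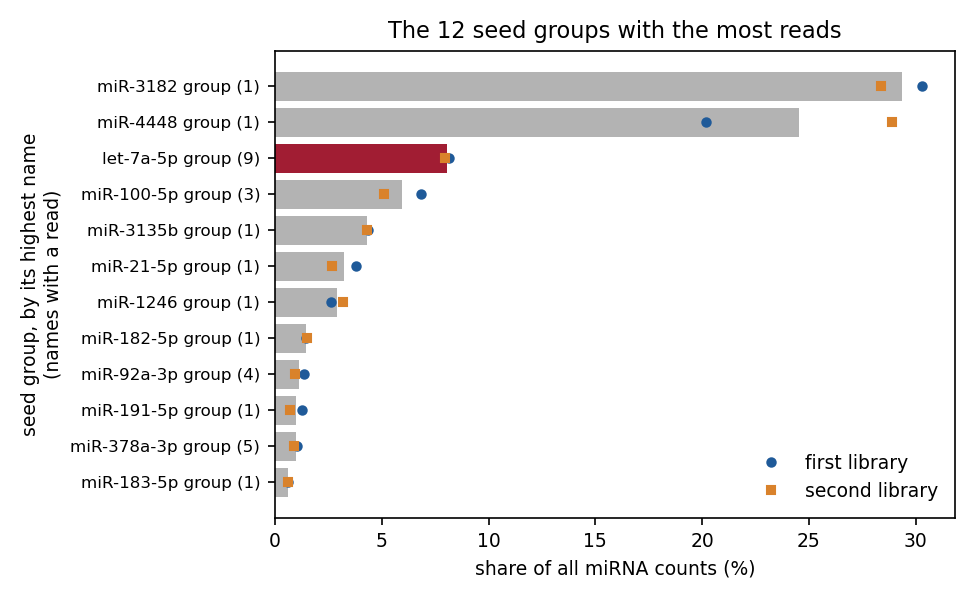
Share of all miRNA counts (%, x axis) held by the 12 seed groups with the most reads among names with a sequence. Groups (y axis) are named by their most abundant miRNA, with the number of names that had a read. Names without a sequence, such as miR-7641 and miR-30d-5p, are in no group. Bars are means of both libraries and points are the libraries. The let-7 group, in red, has 9 names with reads and a mean of 8.07%. Its libraries lie closer together than those of the miR-100-5p and miR-21-5p groups. They lie farther apart than those of the miR-3135b, miR-182-5p, miR-183-5p and miR-378a-3p groups.

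let-7a-5p and let-7f-5p, the members with more than 1 hairpin gene, were the most abundant. let-7a-5p had 4661 reads or 30230 CPM in the first library and 3652 reads or 32266 CPM in the second, with a mean of 31248 CPM ± 1440 (SD, n = 2), and ranked 7 of all miRNA names by mean CPM. let-7f-5p had 3145 and 2480 reads, 20398 and 21911 CPM, a mean of 21154 CPM ± 1070 (SD, n = 2), and ranked 9. Together they held 62.1% of the family reads in the first and 67.9% in the second library. The ratio between them was nearly the same in both, with let-7f-5p at 67.5% of let-7a-5p in the first and 67.9% in the second library.

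A middle tier was formed by let-7b-5p, let-7i-5p and let-7g-5p, each with 1 hairpin gene. let-7b-5p had 1575 and 1103 reads, 10215 and 9745 CPM, a mean of 9980 CPM ± 332 (SD, n = 2). let-7i-5p had 1395 and 902 reads, 9048 and 7969 CPM, a mean of 8508 CPM ± 762 (SD, n = 2). let-7g-5p had 1162 and 559 reads, 7536 and 4939 CPM, a mean of 6238 CPM ± 1837 (SD, n = 2). These 3 members held 32.8% of the family reads in the first and 28.4% in the second library, and let-7g-5p had the largest SD of the 9 members.

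The remaining 4 members held 5.10% of the family reads in the first and 3.67% in the second library. let-7d-5p had 413 and 186 reads, 2679 and 1643 CPM, a mean of 2161 CPM ± 732 (SD, n = 2). let-7e-5p had 93 and 62 reads, 603 and 548 CPM, a mean of 575 CPM ± 39.2 (SD, n = 2). let-7d-5p was thus 4.44 times as abundant as let-7e-5p in the first and 3.0 times in the second library, where the step from let-7g-5p to let-7d-5p was as large, at 3.01 times. let-7c-5p had 65 and 49 reads, 422 and 433 CPM, a mean of 427 CPM ± 8.02 (SD, n = 2). miR-98-5p had 71 and 34 reads, 460 and 300.4 CPM, a mean of 380 CPM ± 113 (SD, n = 2). let-7e-5p, let-7c-5p and miR-98-5p were thus the members with under 100 reads in each library.

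Of the 8 pairs of neighbours in this order, 7 differed by more than the larger SD of the pair and were in the same order in both libraries. The exception was let-7c-5p and miR-98-5p, whose means differed by 46.8 CPM against an SD of 113 CPM and whose order changed between the libraries. The gap between let-7i-5p and let-7g-5p, 2271 CPM, was close to the SD of let-7g-5p, 1837 CPM. With 2 libraries of 1 condition no test of these differences was made.

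**Figure D2:**
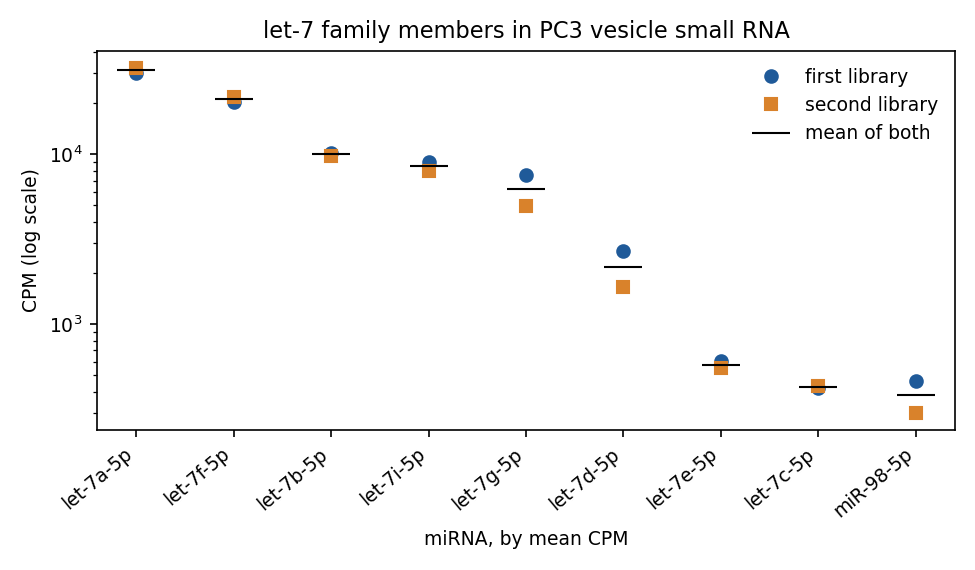
CPM (y axis, log scale) of the 9 let-7 family members (x axis, by mean CPM) in the first and the second small RNA library, with the mean as a line. let-7a-5p, at 30230 and 32266 CPM, is the highest in both libraries, and the points of let-7g-5p, let-7d-5p and miR-98-5p lie farthest apart.

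As members that differ at 1 base can exchange reads through sequencing or mapping errors, the counts were set beside the differences in sequence. Of the 36 pairs of members, 4 differ at 1 position, namely let-7a-5p with let-7f-5p, let-7e-5p and let-7c-5p, and let-7b-5p with let-7c-5p, and another 10 differ at 2. The reads of let-7e-5p were 2.0% of those of let-7a-5p in the first and 1.7% in the second library. let-7c-5p had 1.39% and 1.34% of the reads of let-7a-5p, and 4.13% and 4.44% of those of let-7b-5p. The reads of let-7c-5p and let-7e-5p are therefore few beside those of a member 1 base away, and how many of them were misassigned was not tested, because the handling of reads that fit several names is not given in the sources used here. let-7d-5p and miR-98-5p each differ from let-7a-5p at 2 positions.

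**Figure D3:**
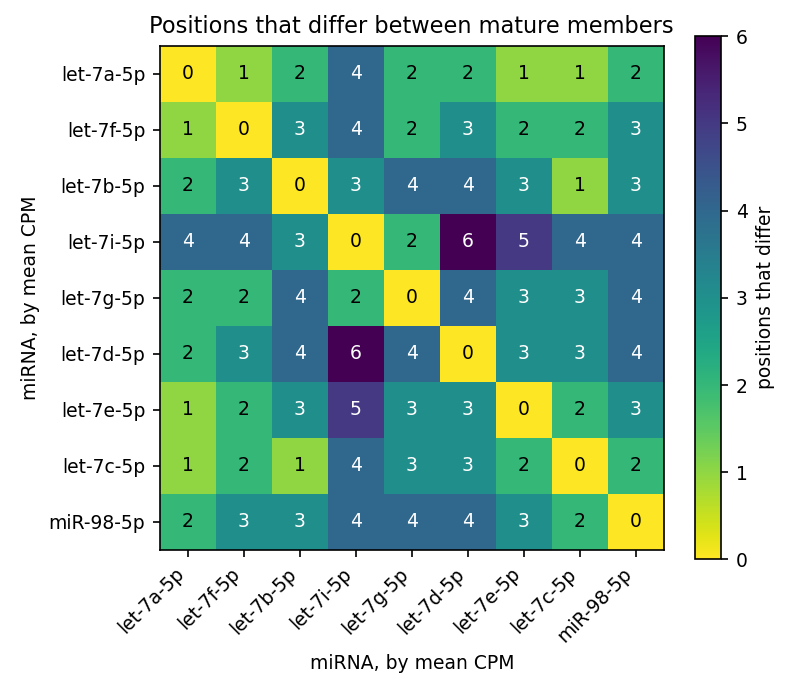
Number of positions, of 22, at which each pair of mature members differs, with members by mean CPM on both axes. let-7c-5p lies 1 position from let-7a-5p and from let-7b-5p, and the most distant pair, let-7d-5p and let-7i-5p, differs at 6.

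The composition of the family differed between the libraries. let-7a-5p made up 37.1% (95% Wilson interval 36.2 to 37.9%) of the family reads in the first and 40.5% (39.4 to 41.5%) in the second library. let-7g-5p went from 9.24% (8.74 to 9.76%) to 6.19% (5.71 to 6.71%), and let-7d-5p from 3.28% (2.99 to 3.61%) to 2.06% (1.79 to 2.37%). In these 3 members the intervals of the libraries did not overlap. The same held for let-7f-5p, at 25.0% (24.3 to 25.8%) and 27.5% (26.6 to 28.4%). For let-7b-5p, let-7i-5p, let-7e-5p, let-7c-5p and miR-98-5p they overlapped, with let-7b-5p at 12.5% (12.0 to 13.1%) and 12.2% (11.6 to 12.9%). Relative to let-7a-5p in the same library, which no scaling affects, let-7g-5p was at 24.9% in the first and 15.3% in the second library, let-7d-5p at 8.86% and 5.09%, and miR-98-5p at 1.52% and 0.931%.

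**Figure D4:**
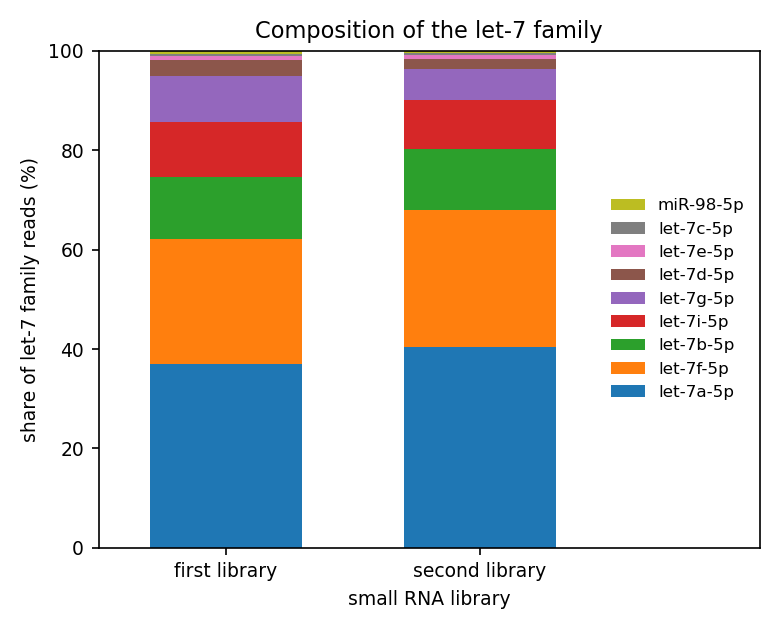
Share of the let-7 family reads (%, y axis) held by each member in the first and the second small RNA library (x axis), stacked from the most abundant at the bottom. let-7a-5p and let-7f-5p together hold 62.1% of the first bar and 67.9% of the second, and the band of let-7g-5p narrows from 9.24% to 6.19%.

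To relate this to the other miRNAs, the ratio of CPM between the libraries, second over first, was computed for the 208 miRNAs whose reads added up to 10 or more, with an exact 95% interval for counting error. These ratios compare 2 libraries and not conditions. let-7g-5p, at a log2 ratio of -0.61 (95% interval -0.76 to -0.46), let-7d-5p, at -0.70 (-0.96 to -0.45), and miR-98-5p, at -0.62 (-1.25 to -0.01), were more than 1.5-fold lower in the second library. This was 3 of 9 members, against 34.1% of all miRNAs tested. No member was more than 1.5-fold higher, against 7.21% of those tested. let-7a-5p, at 0.09 (0.03 to 0.16), and let-7f-5p, at 0.10 (0.03 to 0.18), were slightly higher in the second library. The median absolute log2 ratio was 0.14 over the 9 members and 0.48 over all 208 miRNAs, of which 131 had fewer reads than any member.

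Intervals excluded a log2 ratio of 0 for 6 members, 4 below and 2 above it, against 35.1% of the miRNAs tested. Such intervals narrow as reads increase, and 131 of the 208 miRNAs tested had fewer reads than any member. Members and all miRNAs are thus not compared at like depth, here or with the other scalings below. The calls by fold and by interval also depend on the scaling. With TMM scaling, which moved every log2 ratio up by 0.17, and with median-of-ratios size factors, which moved them up by 0.14, 0 of 9 members were past 1.5-fold. Of all miRNAs tested, 26.0% were then past it on the lower side and 13.0% on the higher side with TMM, and 26.9% and 8.17% with median-of-ratios size factors. The intervals of let-7g-5p and let-7d-5p still lay below 0 and those of let-7a-5p and let-7f-5p above it with both scalings, while those of let-7i-5p and miR-98-5p then included 0. This left 4 members whose interval excluded 0, against 28.8% of all tested with TMM and 30.3% with median-of-ratios size factors. The median absolute log2 ratio of the members was 0.27 with TMM and 0.23 with median-of-ratios size factors, beside 0.44 over all tested with either. By value alone, let-7b-5p moved from below to above 0 with both, and let-7e-5p with TMM. Of all calls past 1.5-fold, 82.6% were lower in the second library with the library total, 66.7% with TMM and 76.7% with median-of-ratios size factors. The log2 ratio of the family total was -0.03 (95% interval -0.07 to 0.01) with the library total, 0.14 (0.10 to 0.18) with TMM and 0.11 (0.07 to 0.15) with median-of-ratios size factors, so its sign depended on the scaling.

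**Figure D5:**
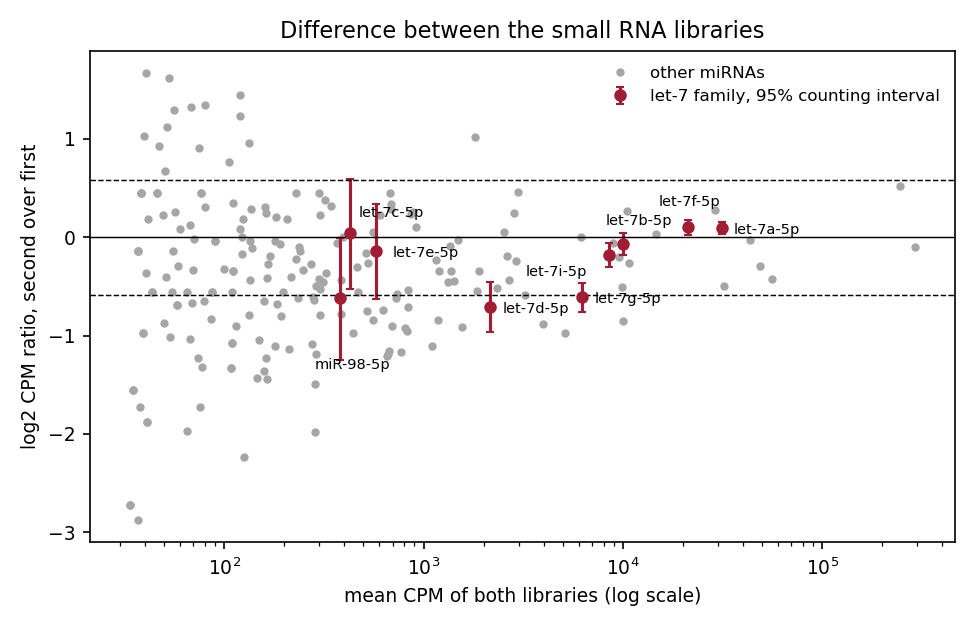
log2 ratio of CPM, second over first library (y axis), against mean CPM (x axis, log scale) for miRNAs with at least 10 reads summed. Members are in red with 95% counting intervals, other miRNAs with reads in both libraries are grey, and dashed lines mark 1.5-fold. let-7g-5p, at -0.61, and let-7d-5p, at -0.70, lie below the lower line with grey points of like abundance around them, and let-7a-5p and let-7f-5p lie just above 0.

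Each hairpin can also give a 3p arm from its other strand, which is usually degraded. The 11 names of 3p arms of the family had 49 reads in the first and 28 in the second library, 0.388% and 0.309% of the reads on both arms, and 4 of them had any read. Most of these reads were from let-7d. The sequences of these 4 arms are shown to place let-7d-3p beside the others, with bases 2 to 8 in capitals, as given by RefSeq.
let-7d-3p: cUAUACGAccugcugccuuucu
let-7a-3p: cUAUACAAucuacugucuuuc
let-7b-3p: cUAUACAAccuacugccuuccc
let-7f-1-3p: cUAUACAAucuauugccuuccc

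let-7d-3p had 28 reads in the first and 17 in the second library. It made up 6.35% (95% Wilson interval 4.43 to 9.02%) of the reads on both arms of let-7d in the first and 8.37% (5.29 to 13.0%) in the second library. For all other members together the 3p arms made up 0.172% (0.113 to 0.263%) and 0.124% (0.0694 to 0.222%). The intervals of let-7d lay above those of this pool in both libraries. Taken singly, let-7a, let-7f, let-7b, let-7i and let-7g also lay below let-7d. The scarce members, with 0 3p reads, did not. The upper Wilson limits of let-7c, 5.58% and 7.27%, and of miR-98, 5.13% and 10.2%, reached into the intervals of let-7d. That of let-7e, 5.83%, did so in the second library. let-7a-3p had 10 and 6 reads, let-7b-3p 10 and 4, and let-7f-1-3p 1 and 1. let-7i-3p had 0 reads beside 1395 and 902 reads of let-7i-5p, which allows a 3p count of up to 0.215% and 0.333% of the 5p count. The limit is looser for the scarce members, up to 4.62% and 6.12% for let-7c-3p and up to 4.23% and 8.82% for miR-98-3p. At this depth their 3p arms were not detected, and their share is bounded less tightly.

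The 9 members are encoded by 12 hairpin genes on 8 chromosomes of GRCh38, and several lie within 10 kb of another miRNA hairpin on the same strand, where one primary transcript is known to give several miRNAs. let-7a is made from MIRLET7A1 (chr9:94175957-94176036, plus strand), MIRLET7A2 (chr11:122146522-122146593, minus strand) and MIRLET7A3 (chr22:46112749-46112822, plus strand), whose mature 5p arms are identical and cannot be told apart by counting. let-7f is made from MIRLET7F1 (chr9:94176347-94176433, plus strand) and MIRLET7F2 (chrX:53557192-53557274, minus strand), and MIR98 (chrX:53556223-53556341, minus strand) lies 851 bases from MIRLET7F2. MIRLET7D (chr9:94178834-94178920, plus strand) lies 2401 bases from MIRLET7F1, and MIRLET7B (chr22:46113686-46113768, plus strand) lies 864 bases from MIRLET7A3. MIRLET7G (chr3:52268278-52268361, minus strand) and MIRLET7I (chr12:62603686-62603769, plus strand) have no other hairpin within 10 kb.

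Neighbours of the miR-99/100 and miR-125 families were more abundant than the member beside them. MIRLET7E (chr19:51692786-51692864, plus strand) lies beside MIR99B and MIR125A. miR-99b-5p had 485 and 302 reads, a mean of 2907 CPM ± 338 (SD, n = 2), and miR-125a-5p 152 and 77 reads, 833 CPM ± 216 (SD, n = 2), against 575 CPM ± 39.2 for let-7e-5p. MIRLET7C (chr21:16539828-16539911, plus strand) lies 659 bases from MIR99A, and miR-99a-5p had 136 and 65 reads, 728 CPM ± 218 (SD, n = 2), against 427 CPM ± 8.02 for let-7c-5p. MIRLET7A2 lies 5636 bases from MIR100, and miR-100-5p had 9909 and 5405 reads, 56010 CPM ± 11677 (SD, n = 2), more than let-7a-5p from all 3 of its hairpins. Each of these differences was larger than the SD of both miRNAs. miR-99a-5p and miR-99b-5p share the seed of the far more abundant miR-100-5p, and whether reads were misassigned among these 3 names was not tested. The same limit was given above for let-7c-5p and let-7e-5p. By contrast, both arms of MIR4763, 29 bases from MIRLET7B, had 0 reads.

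The total RNA libraries were examined for the genes that carry the hairpins. They held 489170 and 475942 reads on genes in replicates 1 and 2, so that 1 read was 2.0 and 2.1 CPM, and only 2.50% and 2.16% of all reads were counted on genes. Of 9 annotated genes that span a member hairpin on the same strand, 3 had reads in both replicates and 6 had 0 reads in both. HUWE1, a ubiquitin ligase gene with MIR98 and MIRLET7F2 in an intron, had 218 and 120 reads. WDR82, a gene of a histone methylation complex with MIRLET7G in an intron, had 48 and 38. Counts of these genes do not measure the hairpins in their introns. MIRLET7BHG, the long non-coding host of MIRLET7A3 and MIRLET7B, whose hairpins lie in its exons, had 4 and 14 reads. MIRLET7A1HG, MIR100HG, MIRLET7IHG, MIR99AHG, SPACA6 and the unnamed gene ENSG00000275180 had 0 reads, which allows up to 6.13 CPM in replicate 1 and 6.30 CPM in replicate 2. The 10 hairpin genes of the family that the table lists also had 0 reads.

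Genes that act on let-7 and genes it is known to act on were counted in the same libraries. Of 16 genes of let-7 processing and function, 7 had at least 1 read in both replicates (43.8%), 5 in a single replicate and 4 in none, against 21.9% of all protein-coding genes with a read in both. LIN28A and LIN28B had 0 reads in both replicates, as had TUT4 and TUT7, the enzymes that add uridine to let-7 precursors bound by LIN28. Of all 19629 protein-coding genes, 11333 likewise had no read in either replicate. A count of 0 allows up to 6.13 CPM in replicate 1 and 6.30 CPM in replicate 2, so absence of these transcripts was not shown. KHSRP, a protein that binds the let-7 loop and promotes its processing, had 200 and 127 reads. AGO2 had 27 and 33 reads and AGO1 24 and 22, both encoding Argonaute proteins. DROSHA had 51 and 0 reads and AGO4 24 and 0, so the replicates were not alike for these.

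Of 23 known let-7 targets, 6 had at least 1 read in both replicates (26.1%), close to the 21.9% of all protein-coding genes. Of the others, 9 had reads in a single replicate and 8 had none, beside 11333 of 19629 protein-coding genes with none. HMGA1, a chromatin protein, had 724 and 683 reads, 1458 CPM ± 31.8 (SD, n = 2). MYC, a growth-promoting transcription factor, had 526 and 349 reads, 904 CPM ± 242 (SD, n = 2). CCND1, the cyclin of the G1 phase, had 45 and 68 reads, and IGF2BP2, an RNA-binding protein of embryonic growth, had 71 and 24. HMGA2, the best studied let-7 target, had 28 and 31 reads, 61.2 CPM ± 5.58 (SD, n = 2). These counts are levels of fragments in vesicles, not corrected for gene length and not set against a condition without let-7, and the strand setting of the counting is not given in the sources used here, so reads of overlapping opposite genes cannot be told apart.

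The labelled source was checked with marker genes. Among genes known in PC3 cells and in vesicles, KRT8 had 966 and 1088 reads, KRT18 94 and 87, VIM 130 and 87, CD44 72 and 44, CD81 18 and 16 and CD63 5 and 29, while CD9 had 0 in both. KLK3, a gene of luminal prostate cells that PC3 cells largely lack, had 0 reads, as had the globin genes HBA1, HBA2 and HBB and the albumin gene ALB. Of 9 miRNAs of blood cells and liver, 6 had 0 reads in both small RNA libraries, including miR-451a of red cells, and the list summed to 292 CPM in the first and 300.4 CPM in the second library. miR-122-5p, a liver miRNA, held most of these reads, with 39 and 26, and miR-486-5p had 6 and 7. The summed list moved by 0.04 on the log2 scale between the libraries, against -0.03 for the family total. The cells were grown in bovine serum, replaced by exosome-free serum for the collection of vesicles, and bovine let-7 of the same mature sequence cannot be told apart from human let-7 by these counts.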

How the data were processed

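Vesicle RNA was made into libraries with small RNA and stranded RNA kits, with biological duplicates of both. The methods name Cutadapt for trimming and SHRiMP and SAMtools for mapping to GRCh38 and raw counts, with miRNAs named after miRBase. Raw counts per mature miRNA and, from HTSeq, raw counts per Ensembl gene were deposited by the authors without normalization. Lines of reads assigned to no gene were left out of library totals, leaving 2.50% and 2.16% of the total RNA reads. Versions, strand setting and multi-mapping rules are not given in the sources used here.

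Counts were scaled to CPM of the library total. Shares carry 95% Wilson intervals, ratios between libraries exact conditional binomial intervals, and 3 counts were taken as the floor. With 1 condition no hypothesis test was made. The interval script was tested on simulated data. Sequences and hairpins came from RefSeq and host genes from GENCODE, both on GRCh38. The genes named are the members, their 3p arms, miRNAs of the same seed or hairpin cluster, host genes, markers, seeds with the most reads, miR-21-5p, LIN28A, LIN28B, HMGA2 and the 5 regulators and 5 targets with the highest mean CPM. TUT4 and TUT7 were added after their values were seen. Single values of some listed genes are not reported here. The members and lists were chosen with earlier results of these data known. TMM factors came from edgeR 4.0.16 in R 4.3.3, and other values from scipy 1.17.1, numpy 2.4.6 and pandas 2.3.3 in Python 3.11.15. Other scalings, minimums, fold limits, denominators and seeds, and each library left out, were tried as alternatives.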

Additional observations from a re-analysis of the deposited data

How the results depend on the processing

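No paired analysis was possible because there is a single condition and the 2 small RNA count columns do not show which labelled replicate each one is. Leaving out each library in turn gave a family share from 7.98% to 8.16% of the miRNA counts and a let-7a-5p share from 3.02% to 3.23%, and left 9 members detected and the let-7 seed at rank 3. Without miR-4448, miR-3182, miR-1246, miR-3135b and miR-7641 the family share was 23.9% and the let-7a-5p share 9.29%. Without the 10 most abundant names outside the family they were 37.6% and 14.6%, the total being smaller in both cases. In both cases the let-7 seed ranked 1. This was fixed in advance, because miR-3182 and miR-4448, which carry the only seeds above it, were left out. With bases 2 to 7 as the seed and all names kept, the let-7 seed ranked 3. The number of members past 1.5-fold between the libraries fell from 3 to 0 with TMM scaling, to 0 with median-of-ratios size factors and to 0 with a limit of 2-fold. Of all tested miRNAs, 26.0% were lower and 13.0% higher past 1.5-fold with TMM, 26.9% and 8.17% with median of ratios, and 16.8% and 4.81% past 2-fold. The share of all miRNAs past 1.5-fold was 41.3% of 208, 70.8% of 765 without a minimum and 32.5% of 77 with at least 100 reads summed. With a read in either replicate, 12 of 16 regulators and 15 of 23 targets were detected (75.0% and 65.2%, against 42.3% of all protein-coding genes). A limit of 3 reads in each replicate left 5 and 5 (31.3% and 21.7%, against 18.6%). The depth limits let-7c-5p, let-7e-5p and miR-98-5p, with 34 to 93 reads per library, and the total RNA genes near the floor.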
